A study of Ovis aries with 16 samples.

Results

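Among 26478 genes counted in the livers of 16 sheep fetuses, 3 are described here: *DNAJC22* (ENSOARG00020000805), *FKBP1B* (ENSOARG00020019964) and ENSOARG00020010401, for which no symbol was given. They were chosen by their fall in fetuses of hypoxic pregnancy, so the difference between the groups is what selected them, and it is given as a description without a *P* value. RNA was sequenced from 9 livers of normoxic pregnancies (CON; 5 male and 4 female fetuses) and 7 livers of hypoxic pregnancies (HOX; 3 male and 4 female), 1 library per fetus. All fetuses were singletons of Welsh Mountain ewes, and the HOX ewes breathed air low in oxygen for 30 days. The sample labels place collection at about day 130, or 0.9 of gestation, whereas the methods of the study give a later day. Each liver is named by its group and animal number.

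*DNAJC22* encodes a membrane protein of the J-domain family. J-domain proteins deliver client proteins to HSC70-type chaperones and switch on their ATPase, and the fly counterpart of *DNAJC22* is needed for clathrin-mediated endocytosis. *FKBP1B* encodes a small FK506-binding protein, a prolyl isomerase that binds the ryanodine receptor, a channel through which calcium leaves the endoplasmic reticulum. The isomerase also binds calcineurin in the presence of FK506. Late in gestation the liver is made up mainly of hepatocytes and still holds blood-forming cells of the red lineage. In bulk tissue, fewer cells of a type and less RNA per cell cannot be told apart.

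The counted reads per liver ranged from 24065959 to 29353692 in CON (median 27762095) and from 23955166 to 33952503 in HOX (median 25055592). A gene was tested when 8 or more livers had 250 reads or more of it, which left 8580 genes holding 97.7% of all reads. HOX animal 1 stood apart from the other 15 livers on the first principal component, at 64.4 against -15.6 to 6.23. The overlap counts of the members are also given without it. The marker levels, gene family values and spreads within HOX all include it. No pair of livers was a duplicate, since the closest pair differed by 63.2 times the counting noise (chi-square per gene). Of 24 hepatocyte markers, 15 were identified and tested, and their summed level ranged from 23266 to 34299 CPM (counts scaled to the normalized size of the library) in CON and from 16301 to 25922 CPM in HOX.

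The members were chosen as genes of low abundance, which among the 8580 tested genes held for 2 of the 3. Genes that were counted but fell short of the read minimum are not in this ranking. *DNAJC22* had 323 to 759 reads per liver in CON (median 416) and 100 to 413 in HOX (median 197). Only 10.3% of the tested genes had fewer reads on average. *FKBP1B* had 246 to 1063 reads in CON (median 648) and 195 to 344 in HOX (median 268), and 26.5% of the tested genes had fewer. ENSOARG00020010401 was of another order. It had 24304 to 80629 reads in CON (median 52446) and 16166 to 39054 in HOX (median 24326), the gene ranked 56 of the 8580 by read number. It alone took 0.101 to 0.286% of the reads of a CON liver and 0.067 to 0.131% of those of a HOX liver. The name of a low-abundance gene therefore does not hold for ENSOARG00020010401. These are read numbers, not levels per length, and gene lengths were not used.

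The read minimum was reached in all 16 livers by ENSOARG00020010401 alone. *DNAJC22* reached 250 reads in 9 of 9 CON livers but in 2 of 7 HOX livers. *FKBP1B* reached it in 8 of 9 CON livers and 4 of 7 HOX livers. Each of these genes thus entered the test through its CON livers, the group in which it was high.

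*DNAJC22*, the J-domain protein, was lower in HOX. Values are CPM after normalization by trimmed mean of M-values. In CON the lowest liver was at 11.7, the median at 15.1 and the highest at 27.1 CPM. In HOX the lowest was at 4.12, the median at 6.51 and the highest at 12.0 CPM. The groups met at 1 point only, where HOX animal 1 (12.03 CPM) exceeded CON animal 9 (11.68 CPM), and the other 6 HOX livers lay below every CON liver. CON animal 3 stood above the rest of its group, and HOX animals 1 and 6 above the rest of theirs. The mean was 16.5 ± 4.74 CPM in CON (SD, *n* = 9) and 7.36 ± 2.79 CPM in HOX (SD, *n* = 7). The log2 fold change was -1.17 (SE 0.222), or 0.446 of the CON level.

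*FKBP1B*, the prolyl isomerase, had the widest CON range of the 3 genes when the highest liver is divided by the lowest (4.11, against 2.32 for *DNAJC22* and 3.20 for ENSOARG00020010401). Its CON livers ran from 10.6 CPM through a median of 25.9 to 43.7 CPM. Its HOX livers ran from 5.85 CPM through a median of 11.3 to 11.8 CPM. The overlap came from the bottom of CON, where animal 5 (10.63 CPM) lay among the HOX livers and animal 7 (12.82 CPM) just above them. HOX animals 3, 4, 5 and 6 lay close together (11.3 to 11.8 CPM), and the other 3 HOX livers lay below every CON liver. The mean was 25.5 ± 11.0 CPM in CON (SD, *n* = 9) and 9.68 ± 2.33 CPM in HOX (SD, *n* = 7). Its log2 fold change was -1.40 (SE 0.266), or 0.379 of the CON level.

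ENSOARG00020010401 was measured at a far greater depth than the others and fell by a like size. The CON livers lay between 1050 and 3359 CPM, with a median of 2061 CPM. The HOX livers lay between 675 and 1286 CPM, with a median of 985 CPM. CON animal 5, the lowest CON liver for *FKBP1B* too, was again the one that reached into HOX, below HOX animals 3 and 7. The mean was 2094 ± 711 CPM in CON (SD, *n* = 9) and 961 ± 204 CPM in HOX (SD, *n* = 7). The log2 fold change was -1.12 (SE 0.208), or 0.459 of the CON level.

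**Figure D1:**
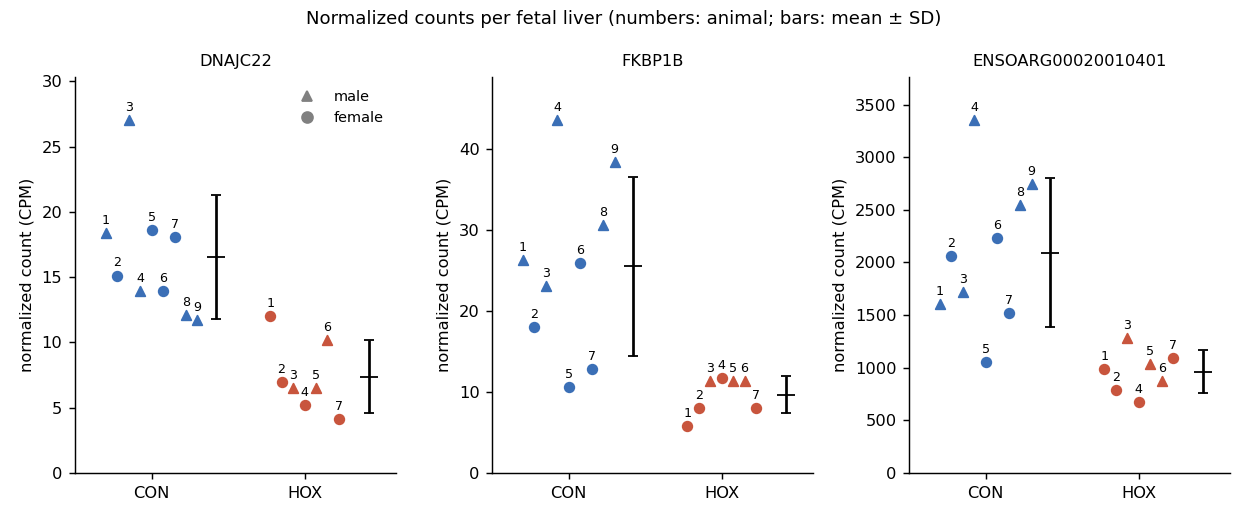
Normalized count (CPM, linear axis from 0) of each gene in each liver, by group, with triangles for male and circles for female fetuses, animal numbers beside the points, and the mean ± SD at the right of each group. For *DNAJC22* only HOX animal 1 (12.03 CPM) reached above a CON liver, and for the other genes only CON animal 5 (10.63 CPM of *FKBP1B*, 1050 CPM of ENSOARG00020010401) reached down into HOX.

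Overlap was counted over the 63 pairs of 1 HOX and 1 CON liver. The HOX liver was lower in 62 pairs for *DNAJC22*, in 59 for *FKBP1B* and in 61 for ENSOARG00020010401. For each gene the CON mean exceeded all 7 HOX values, and 8 of 9 CON livers lay above the highest HOX liver. *GPD1* and *GSS*, the other genes called lower by the same test, were lower in 63 of 63 pairs each, with log2 fold changes of -1.27 (SE 0.174) and -0.68 (SE 0.122). Those encode a glycerol-3-phosphate dehydrogenase and the second enzyme of glutathione synthesis. Without HOX animal 1, the liver that stood apart, the HOX liver was lower in 54 of 54 pairs for *DNAJC22*, 50 of 54 for *FKBP1B* and 52 of 54 for ENSOARG00020010401.

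Across all 8580 genes tested, every HOX liver lay below the lowest CON liver for 6 genes (0.0699%), and none of the 3 members is among them. With HOX animal 1 set aside the number was 17 (0.198%), with *DNAJC22* among them. A log2 fold change of -1 or less was found for 18 genes (0.21%), the 3 members included. By edgeR's quasi-likelihood test at an adjusted *P* under 0.15, 5 genes were lower in HOX (0.0583%): the 3 members, *GPD1* and *GSS*. Since the fall chose the members, nothing is read from their place in these counts. Over all genes tested the median log2 fold change was 0.0054. Next to the limit of -1, ENSOARG00020013189 lay just inside at -1.02 (SE 0.518) and ENSOARG00020022321 just outside at -0.999 (SE 0.252).

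Because overlap can come from fetuses of different sex, the groups were also set side by side within each sex. Among males, each of the 3 genes was lower in HOX in 15 of 15 pairs. In male fetuses *FKBP1B* was at 32.4 ± 8.50 CPM in CON (SD, *n* = 5) and 11.3 ± 0.0444 CPM in HOX (SD, *n* = 3). The SD of the HOX males was smaller than counting alone would give, so it does not show an even level. Over all HOX livers the coefficient of variation from counting was 6.23%. Among females *DNAJC22* was lower in 16 of 16 pairs, and *FKBP1B* and ENSOARG00020010401 in 15 of 16 each. In female fetuses *FKBP1B* was at 16.8 ± 6.80 CPM in CON (SD, *n* = 4) and 8.43 ± 2.46 CPM in HOX (SD, *n* = 4). CON animals 5 and 7, the lowest CON livers for *FKBP1B*, were both female. Of all genes tested, 3.32% had no overlap among males and 1.6% none among females, with HOX the lower.

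Sex itself was not used to choose the genes and was tested in a model with treatment. *DNAJC22* was close to even between the sexes, at 16.6 ± 6.40 CPM in CON males (SD, *n* = 5) and 16.4 ± 2.26 CPM in CON females (SD, *n* = 4). Its male against female difference was 0.06 on the log2 scale (SE 0.221; edgeR adjusted *P* = 0.988). *FKBP1B* had the largest difference of the 3, with males higher by 0.73 on the log2 scale (SE 0.202). This did not pass the test over all genes (edgeR adjusted *P* = 0.974; DESeq2 adjusted *P* = 0.404), although it was among the 3.11% of genes with an unadjusted *P* under 0.05. ENSOARG00020010401 was at 2395 ± 733 CPM in CON males (SD, *n* = 5) and 1717 ± 538 CPM in CON females (SD, *n* = 4), and its log2 difference of 0.39 (SE 0.187) did not pass either (edgeR adjusted *P* = 0.974). Sex was called for 2 genes in all (0.0233%), neither of them a member.

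Whether hypoxia acted differently in males and females was tested as an interaction. The log2 fold change was -1.10 in males and -1.19 in females for *DNAJC22*, -1.51 and -0.99 for *FKBP1B*, and -1.16 and -0.95 for ENSOARG00020010401. The male minus female difference in the fall was 0.10 (SE 0.461) for *DNAJC22*, -0.51 (SE 0.395) for *FKBP1B* and -0.21 (SE 0.384) for ENSOARG00020010401. The edgeR adjusted *P* was 0.999 for each gene. No gene passed this test (0%), with 281 genes at an unadjusted *P* under 0.05 and 6 called by DESeq2, none of them a member. With 1 liver left out the difference for *DNAJC22* was lowest without HOX animal 6 (-0.164) and highest without HOX animal 1 (0.494), and it ran from -0.804 (without CON animal 6) to -0.319 (without HOX animal 4) for *FKBP1B* and from -0.380 (without CON animal 6) to -0.0355 (without CON animal 5) for ENSOARG00020010401. A *P* that misses the threshold does not show that the sexes responded alike, and the standard errors of these differences were 0.384 to 0.461.

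Read number could limit how well the low genes were measured, so the spread between livers was set against the spread that counting alone gives (Poisson). For *DNAJC22* the coefficient of variation between livers was 28.6% in CON and 37.9% in HOX, where counting alone would give 4.83% and 6.97%. Counting thus made up 2.84% of the variance in CON and 3.39% in HOX. For *FKBP1B* the spread was 43.1% in CON and 24.1% in HOX, against 3.89% and 6.23% from counting, or 0.812% and 6.67% of the variance. For ENSOARG00020010401 the spread was 33.9% in CON and 21.3% in HOX, against 0.429% and 0.618%. Over all genes tested the median counting share of the variance was 4.26% in CON and 3.07% in HOX, so only *DNAJC22* and *FKBP1B* in HOX lay above the median gene. Reads from the same cDNA molecule cannot be recognized in these counts, so these figures cover counting error only.

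**Figure D2:**
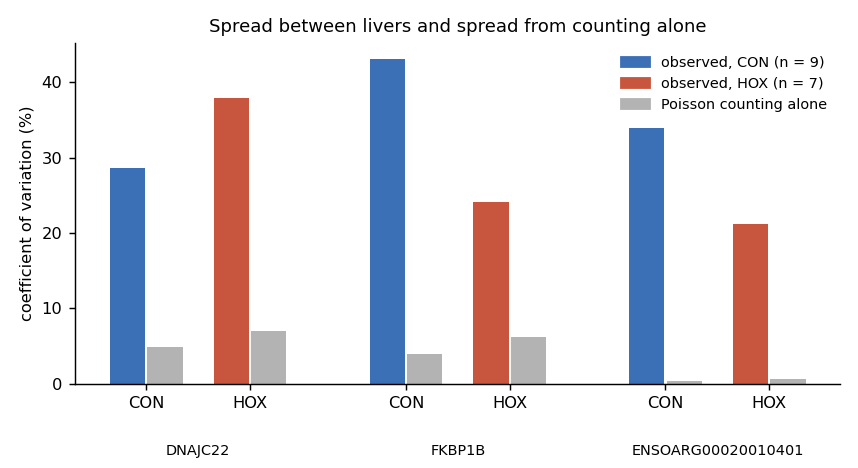
Coefficient of variation (percent, bars from 0) between livers within CON (*n* = 9) and HOX (*n* = 7) for each gene, with grey bars for the part that Poisson counting of its reads would give. The grey bars reach at most 6.97%, in the HOX livers for *DNAJC22*, and the coloured bars 21.3 to 43.1%.

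The order of the spread changed with the group. *FKBP1B* varied more between CON livers than between HOX livers, with 5.43% of all genes more variable in CON and 33.3% in HOX. ENSOARG00020010401 did likewise, with 9.77% of genes more variable in CON and 41.9% in HOX. *DNAJC22* had 15.0% of genes above it in CON and 12.4% in HOX. The median gene varied by 16.5% in CON and 19.2% in HOX, so the members lay above it in each group. The difference in spread between groups was not tested.

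Since the fall chose the genes, how they moved together was followed only within groups, as deviations between livers of like treatment. In CON, *FKBP1B* and ENSOARG00020010401 rose and fell together. CON animals 4, 9 and 8 were the 3 highest livers for both genes, in that order, and animal 5 was the lowest for both. Over the 9 CON livers Pearson's *r* was 0.90 (exact permutation *P* = 0.000926, adjusted over 6 correlations 0.00556) and Spearman's rho was 0.88 (exact permutation *P* = 0.00308, adjusted 0.0185). With sex taken out of both genes, *r* was 0.92 (permutation of deviations from the sex means, adjusted *P* = 0.00465). Those deviations were permuted over all 9 livers regardless of sex, so this test is approximate, not exact. Without the 2 livers farthest from the median of *FKBP1B* it was 0.77 (exact permutation, adjusted *P* = 0.136), and without CON animal 5 it was 0.82 (exact permutation, adjusted *P* = 0.0719), so the call was lost in these smaller sets while *r* stayed positive. Leaving out any other CON liver kept it, with the top liver, animal 4, left out at *r* = 0.86 (exact permutation, adjusted *P* = 0.0345).

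In HOX the same genes were not positively correlated. Over the 7 HOX livers *r* was -0.09 (exact permutation *P* = 0.853, two-sided) and rho was -0.21 (exact permutation *P* = 0.662), with *r* at 0.25 without the 2 livers farthest from the median of *FKBP1B*. With sex taken out of both genes *r* was -0.59 (permutation of deviations from the sex means, adjusted *P* = 0.211), against 0.92 in CON. HOX animal 4 had the highest *FKBP1B* (11.77 CPM) and the lowest ENSOARG00020010401 (675 CPM). Both genes covered a narrower range in HOX, and whether *r* differed between the groups was not tested.

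*DNAJC22* ran the other way in CON. Its lowest CON livers, animals 9 and 8, were among the 3 highest for ENSOARG00020010401. The correlation of *DNAJC22* with ENSOARG00020010401 was -0.66 in CON (exact permutation *P* = 0.0495, adjusted 0.149), with rho at -0.78 (exact permutation *P* = 0.0172, adjusted 0.0517). Neither passed 0.05 after adjustment. Leaving out CON animal 3, the highest for *DNAJC22*, gave -0.84 (exact permutation, adjusted *P* = 0.0249), and leaving out the 2 livers farthest from the median of *DNAJC22* also gave -0.84. In HOX *r* was -0.03 (exact permutation *P* = 0.942) and rho was -0.25 (exact permutation *P* = 0.595), with *r* at 0.15 without the 2 farthest livers.

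*DNAJC22* and *FKBP1B* were also opposed without passing the test. In CON *r* was -0.50 (exact permutation *P* = 0.169, adjusted 0.338) and rho was -0.65 (exact permutation *P* = 0.0666, adjusted 0.133), with *r* at -0.70 without the 2 farthest livers. In HOX *r* was -0.33 (exact permutation *P* = 0.454, adjusted 0.682) and rho was -0.39 (exact permutation *P* = 0.396, adjusted 0.593), with *r* at -0.09 without the 2 farthest livers. With sex taken out *r* was -0.70 in CON (adjusted *P* = 0.0606) and -0.64 in HOX (adjusted *P* = 0.154), each by permutation of deviations from the sex means. The sign in HOX turned on HOX animal 1, the highest for *DNAJC22* and the lowest for *FKBP1B*, without which *r* was 0.387. Of the 6 correlations between members, 1 thus passed 0.05 after adjustment.

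**Figure D3:**
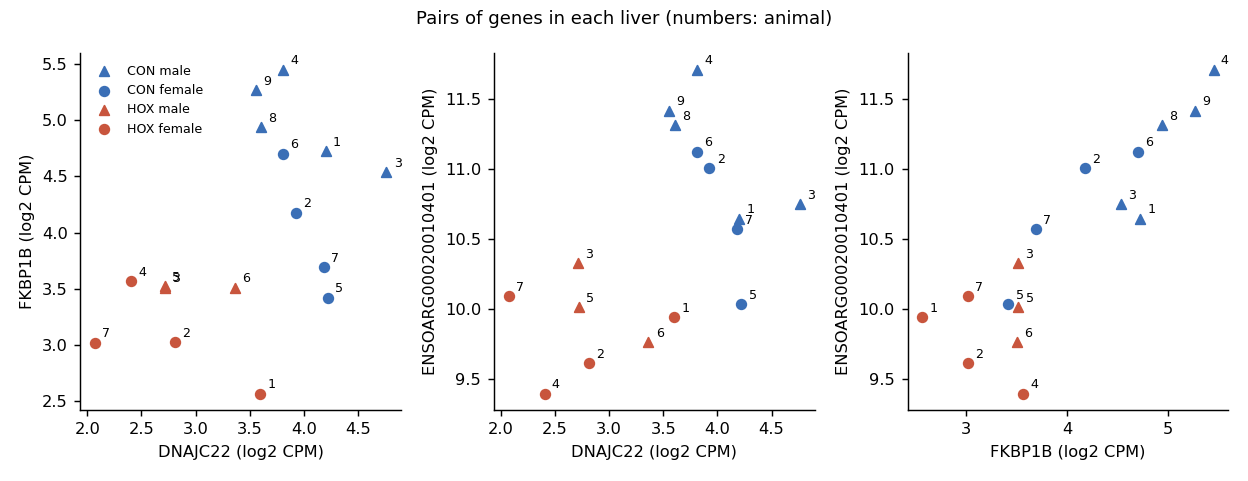
Each pair of genes in each liver, on log2 CPM axes (prior count 2), blue for CON and red for HOX, triangles for male and circles for female fetuses, with animal numbers. The 9 CON livers lie along a rising line for *FKBP1B* and ENSOARG00020010401 (*r* = 0.90), and the 7 HOX livers do not (*r* = -0.09).

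Library depth was compared in the same way. Over CON and HOX separately, 0 of 6 correlations with the library total passed 0.05 after adjustment by exact permutation tests (lowest adjusted *P* = 0.319). The strongest was *FKBP1B* in HOX, at *r* = -0.69 (exact permutation *P* = 0.0800) and rho = -0.71 (exact permutation *P* = 0.0881), with *r* at -0.76 without the 2 livers farthest from the median. *DNAJC22* in HOX was at *r* = 0.56 (exact permutation *P* = 0.213) and rho = 0.61 (exact permutation *P* = 0.167), and *r* was 0.03 without the 2 livers farthest from the median. In CON *FKBP1B* was at *r* = 0.47 (exact permutation *P* = 0.198), and at 0.21 without the 2 farthest livers. ENSOARG00020010401 in CON was at *r* = 0.55 (exact permutation *P* = 0.128), and at 0.18 without the 2 farthest livers. The remaining values were -0.05 for *DNAJC22* in CON and 0.16 for ENSOARG00020010401 in HOX. With all libraries thinned to the smallest total of 23955166 reads, the log2 fold change of each member kept its sign and moved by less than 1 SD between livers (pooled within groups).

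Values of hepatocyte and red cell markers are given beside the fall of the members. Symbols could be given only to genes of a list that the study called on these same livers, so the markers that could be found were selected for a difference and are not independent evidence of one. Of the 15 hepatocyte markers tested 14 had a lower and 1 a higher value in HOX, with a median log2 fold change of -0.52. Of 12 red cell markers 4 were identified, all with a higher value in HOX, and their summed level was 169.7 to 533 CPM in CON and 259 to 772 CPM in HOX. By edgeR 0 of these 19 genes passed an adjusted *P* of 0.15, although each had an unadjusted *P* under 0.05, as had 11.9% of all genes tested. DESeq2 called 10 of the hepatocyte markers (2.76% of all genes) and limma-voom 6 (1.7% of all genes), and each called 0 of the red cell markers. Within groups, 0 of 12 correlations between a member and the mean level of either marker list passed 0.05 after adjustment by exact permutation tests (lowest adjusted *P* = 0.157). That lowest value was *FKBP1B* with the hepatocyte markers in HOX, at *r* = 0.85 (exact permutation *P* = 0.0131) and rho = 0.75 (exact permutation *P* = 0.0663), and *r* was 0.30 without the 2 livers farthest from the median. ENSOARG00020010401 with the red cell markers in CON was at *r* = -0.68 (exact permutation *P* = 0.0421, adjusted 0.252) and rho = -0.55 (exact permutation *P* = 0.133), with *r* at -0.61 without the 2 farthest livers. The part of cell composition in the fall of the members was not tested.

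The relatives of the members could be found only through the same list and are likewise not independent evidence of a direction. Of 51 J-domain genes 2 were found, each with a lower value in HOX. Besides *DNAJC22* this was *DNAJC4*, at 12.1 ± 2.44 CPM in CON (SD, *n* = 9) and 8.43 ± 0.893 CPM in HOX (SD, *n* = 7). Its log2 fold change was -0.52 (SE 0.128; edgeR adjusted *P* = 0.224), which did not pass, although DESeq2 and limma-voom called it. Of 38 genes of HSC70, clathrin and endocytosis 6 were found and 0 passed the test by edgeR or limma-voom, with 6 at an unadjusted *P* under 0.05 and 2 called by DESeq2. Values were higher in HOX for 5 of them (*AP2A1*, a subunit of the clathrin adaptor AP-2; *CUBN*, an endocytic receptor; *EPN2*; *FCHO1*; and *TFRC*, the transferrin receptor) and lower for *ASGR2*, a subunit of the hepatocyte asialoglycoprotein receptor. *ASGR2* is also among the hepatocyte markers and *TFRC* among the red cell markers.

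Of 18 FK506-binding protein genes 3 were found. *FKBP7*, a prolyl isomerase of the endoplasmic reticulum, was at 16.6 ± 3.40 CPM in CON (SD, *n* = 9) and 11.5 ± 1.64 CPM in HOX (SD, *n* = 7), a log2 difference of -0.53 (SE 0.129; edgeR adjusted *P* = 0.224). *FKBP11*, an isomerase of secretory cells, was at 51.0 ± 13.5 CPM in CON (SD, *n* = 9) and 43.7 ± 17.8 CPM in HOX (SD, *n* = 7), a log2 difference of -0.22 (SE 0.197; edgeR adjusted *P* = 0.653). Neither passed by edgeR, and DESeq2 and limma-voom each called 1 of them, *FKBP7*. Of 38 genes of calcium release and calcineurin signalling 4 were found on 5 identifiers, and 0 passed by edgeR or DESeq2, with 3 at an unadjusted *P* under 0.05 and 2 called by limma-voom. For *CALU*, a calcium-binding protein of the secretory pathway with a pair of identifiers, the log2 fold changes were -0.380 (SE 0.143) and -0.062 (SE 0.161). Values were higher in HOX for *ATP2B4* (0.551, SE 0.226) and *NFATC1* (0.325, SE 0.111). *RCAN1* was at 56.5 ± 31.4 CPM in CON (SD, *n* = 9) and 60.3 ± 90.5 CPM in HOX (SD, *n* = 7). Its log2 fold change of 0.10 (SE 0.547) was also the median of the list.

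Genes with a like pattern were sought over the 16 livers after the group means were taken out, among 8579 other genes. This *r* is a description of likeness without a test. The 5 genes most like each member had no symbol, with *r* from 0.80 to 0.87 for *DNAJC22*, 0.83 to 0.89 for *FKBP1B* and 0.74 to 0.84 for ENSOARG00020010401. The nearest genes with a symbol, chosen after their values were seen, were *TOMM6*, part of the import machinery of the mitochondrial outer membrane, for *DNAJC22* (*r* = 0.69, rank 44), *AIF1L*, an actin-binding protein, for *FKBP1B* (*r* = 0.81, rank 8) and *FKBP1B* itself for ENSOARG00020010401 (*r* = 0.69, rank 16). From the side of *FKBP1B*, ENSOARG00020010401 ranked 77. *DNAJC22* lay at -0.40 with *FKBP1B* and -0.39 with ENSOARG00020010401 on this measure. Likeness of the 3 genes to *GPD1* and *GSS* ran from -0.18 (ENSOARG00020010401 with *GPD1*) to 0.33 (*FKBP1B* with *GPD1*, rank 1492). The level of each of these 5 genes was lower in HOX. That fall does not enter this *r*, since the group means were taken out.

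The sizes of the fall were followed through 30 alternatives for each gene. For *DNAJC22* the log2 fold change lay between -1.33 (without HOX animal 1) and -1.03 (without CON animal 3). For *FKBP1B* it lay between -1.51 (males alone) and -0.99 (females alone). For ENSOARG00020010401 it lay between -1.19 and -0.95 (females alone). With sex as a covariate it was -1.16 (SE 0.229) for *DNAJC22*, -1.25 (SE 0.209) for *FKBP1B* and -1.06 (SE 0.193) for ENSOARG00020010401. Each value kept its sign and moved by less than 1 SD between livers, pooled over both groups. For *FKBP1B* in females alone the move was larger than the log2 SD of its HOX livers (0.38) and smaller than that of its CON livers (0.68).

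**Figure D4:**
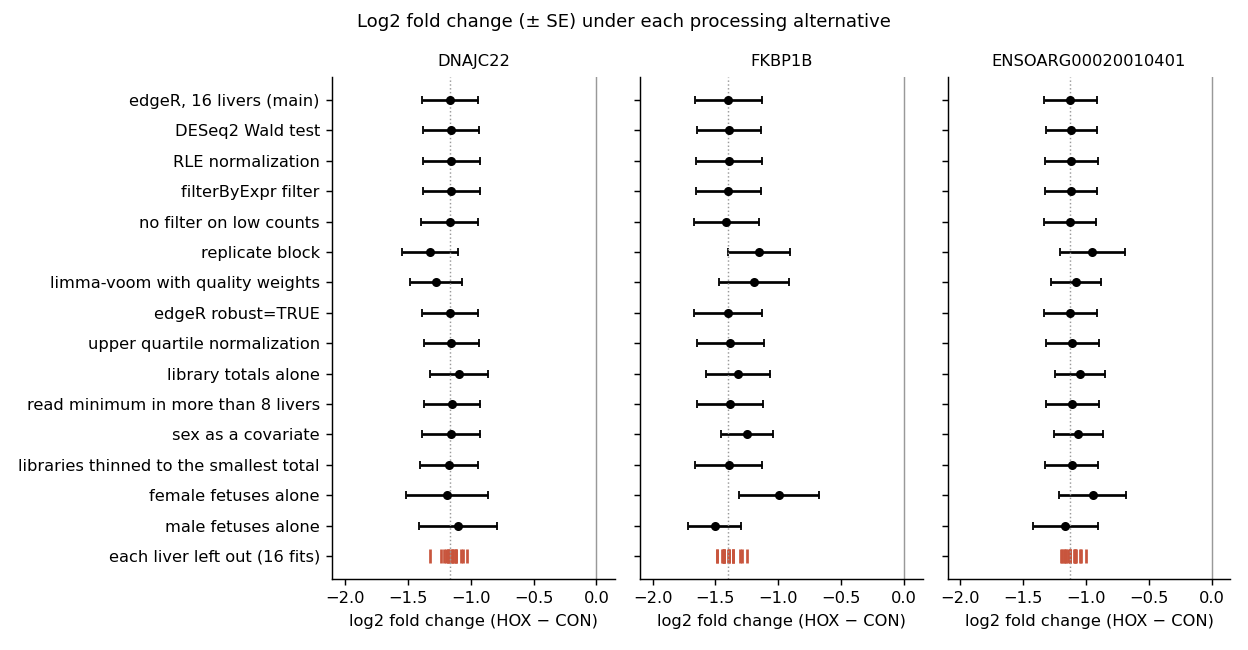
Log2 fold change, HOX against CON (points, with SE bars), of each gene under each processing alternative, with the main value dotted and red marks for the fits that each leave out 1 liver. The values lie from -1.33 to -1.03 for *DNAJC22*, from -1.51 to -0.99 for *FKBP1B* and from -1.19 to -0.95 for ENSOARG00020010401, all below 0.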

How the data were processed

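Liver RNA of 9 CON and 7 HOX fetuses was sequenced from polyA-enriched libraries, and each fetus is 1 replicate. Mapping was by STAR 2.7.10b, against the sheep assembly ARS-UI_Ramb_v1.0 and Ensembl's gene models. The authors deposited raw counts of reads per gene for 26478 genes, of which 5307 had 0 reads in every liver. The counting rule and the use of strand are not given in the sources used here, so reads shared with near-identical copies, or with overlapping or antisense genes, cannot be told apart. Total counts ran from 23955166 to 33952503 per liver.

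Symbols came only from the study's list of 487 identifiers, 438 of them with a symbol. The RefSeq gene table at hand (ARS-UI_Ramb_v3.0) held 0 of the identifiers, so no position or sequence is given.

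Counts were fitted in R 4.3.3 with edgeR 4.0.16 (quasi-likelihood test, TMM normalization, robust=FALSE) for genes reaching 250 reads in 8 or more livers. The SE of an edgeR log2 fold change was the size of that fold change divided by the square root of the test's F statistic. It is thus not separate from the test. Adjustment of *P* was by Benjamini and Hochberg over 8580 genes, with calls under 0.15. The filter and threshold were taken from the wording of the study's methods, which leaves room for other readings and names DESeq2. DESeq2 1.42.0 and limma 3.58.1 were run as alternatives. Sex and its interaction with treatment were coefficients of the same kind of model. Correlations used log2 CPM (prior count 2) within CON and HOX, with two-sided exact permutation tests over all pairings and adjustment over each family of 6, 6 and 12. The tests were computed with numpy 2.4.6, with ranks from scipy 1.17.1. Those with sex taken out permuted deviations from the sex means and are approximate. Plots were made with matplotlib 3.10.9. The fits were tested on simulated counts.

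The members, gene lists and tests were chosen with earlier results of these data known. Named genes were the members, *GPD1* and *GSS*, the 5 genes most like each member, the genes beside a log2 fold change of -1, and genes of the lists. Alternatives covered the tool, normalization, filter, sex, thinning, replicate block and each liver left out. Those for the overlap counts were chosen after seeing the data. Of the other marker lists, 1 gene each was found for macrophages (*CD163*) and endothelium (*CD34*), 2 for mesenchymal cells (*ASPN*, *TGFBI*) and 0 for smooth muscle and lymphoid cells, and 0 of those 4 passed by edgeR, with 4 at an unadjusted *P* under 0.05 and 2 called by DESeq2 and by limma-voom. A further marker list is not reported here.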

Additional observations from a re-analysis of the deposited data

Results flagged for a closer look

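One value stood out from its own group. *DNAJC22* in CON animal 3, a male, was at 27.1 CPM, farther above the next CON liver than Dixon's 95% limit allows for 9 livers (ratio of gap to range 0.552 against 0.493). The limit was applied to CPM, not to the log2 scale of the fold changes and correlations, so the flag holds for the CPM scale only. Chance alone flags about 1 in 20 groups, and both groups of all 3 genes and of the library totals were examined. Without this liver the log2 fold change of *DNAJC22* was -1.03.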

How the results depend on the processing

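The log2 fold changes of the 3 members between HOX and CON kept their sign, and moved by less than 1 SD between livers (pooled within groups), in all 30 alternatives of each. With other normalizations, or with reads as counted, the HOX liver was lower in 59 to 61 of 63 pairs for *DNAJC22*, 57 to 59 for *FKBP1B* and 59 to 61 for ENSOARG00020010401. The number of genes called did not hold. Against 5 genes, HOX against CON gave 237 with DESeq2, 146 with limma-voom, 2 in males alone, 0 in females alone (446 at an unadjusted *P* under 0.05), and 1 each with the filterByExpr filter, without a filter and with library totals alone. Leaving out 1 liver gave 1 to 47, with 47 without HOX animal 5 and 12 without HOX animal 1, the liver that stood apart. The number was 1 without CON animal 4 or 9 and without HOX animal 2, 3, 6 or 7. A number under 3 leaves out at least 1 of the 3 members, so the call of the members did not hold either. Sex gave 7 with DESeq2 against 2, and 1 to 2 with 1 liver left out. The interaction gave 6 with DESeq2 against 0, and 0 to 3 with 1 liver left out (3 without HOX animal 4). The cause was not tested.

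Deviations from the group means of same-numbered CON and HOX livers had correlations from -0.314 to 0.153. Livers of unlike number were not compared, so these values cannot decide whether the numbers pair the livers. With the replicate block, 0 genes were called for treatment (756 at an unadjusted *P* under 0.05) and 0 for sex (439), and the interaction turned to -0.117 for *DNAJC22* and 0.353 for ENSOARG00020010401.

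With 1 liver left out, the male against female difference of *DNAJC22* ran from -0.0771 to 0.213 and its interaction from -0.164 to 0.494. *DNAJC22* with *FKBP1B* in HOX ran from -0.655 to 0.387. *DNAJC22* with ENSOARG00020010401 ran from -0.844 (adjusted exact permutation *P* = 0.0249) to -0.608 in CON and from -0.387 to 0.208 in HOX, where *r* was also 0.00532 with RLE normalization, 0.0529 with library totals, 0.0154 thinned and 0.146 without the 2 farthest livers. *FKBP1B* with ENSOARG00020010401 ran from 0.823 to 0.946 in CON, where it was 0.767 without the 2 farthest livers (adjusted exact permutation *P* = 0.136), and from -0.381 to 0.243 in HOX, with 0.245 without the 2 farthest and -0.588 with sex taken out. Counting error was largest as a share of variance for *FKBP1B* in HOX, at 6.67%.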
